A study of Mus musculus and Rattus norvegicus with 14 samples.

Results

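The genes S100a4, S100a6, S100a8, S100a9, S100a10, S100a11 and S100a13 of the S100 family were followed in mouse hearts and in rat heart cells. They were chosen by gene name, with earlier results of these data known. All 7 of 7 were found among the 54532 genes of the mouse table and again among the 33600 genes of the rat table. All 7 passed the filter for testing in the mouse, a value of 1 FPKM or more in 3 or more of the 12 libraries. FPKM is the number of reads of a gene relative to its length and to the depth of the library.

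The mouse samples were hearts in 4 groups of 3 libraries each. The labels name them as treatments, with Sham as the control operation, Model as the group with myocardial fibrosis, and LQ-40 and SQ-3 as compounds that the design text describes as structurally similar and tests against fibrosis. The rat samples were 1 library of 3 primary cell types from 2D culture joined at 1:1:1 (cardiomyocytes, fibroblasts of the heart, and macrophages derived from bone marrow), and 1 library of the same cell types as a 3D co-culture, the hypoxic tissue named 3D-OGD-MF. The labels used here state no strain, sex, age, procedure of the model, dose or time, nor whether each library was a separate animal, and p-values measure the spread between these libraries.

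S100 proteins are small EF-hand proteins that bind calcium, expose a binding surface and then attach to partner proteins such as annexins and myosin. Several also leave the cell and act on receptors such as RAGE, encoded by Ager, and TLR4. In the heart S100A1 is the family member of cardiomyocytes, whereas S100A8 and S100A9, the subunits of calprotectin, are abundant in neutrophils, and S100A4, S100A6, S100A10 and S100A11 are known from fibroblasts, endothelial cells and macrophages.

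The mouse libraries held 13085370 to 16698987 counted reads, of which 10.8% to 23.6% were mitochondrial. Defining markers of heart muscle were high in every library: the 8 cardiomyocyte markers summed to 6053 to 16349 scaled FPKM, which is FPKM divided by a size factor for each library. One library stood apart. LQ-40 replicate 2 held transcripts of lung epithelium, with a sum of 434 scaled FPKM over 7 markers chosen after the values were seen, against 0.0762 to 0.402 in the other 11 libraries. The rat cell libraries held 13262387 reads in 2D and 11910160 in 3D. There the 7 cardiomyocyte markers of the rat table summed to only 10.3 and 10.96 scaled FPKM, against 2842 and 3112 for the 10 fibroblast markers, so the labelled cardiomyocytes left little trace in these libraries.

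In the mouse heart the 7 genes spanned a wide range of levels. By the mean scaled FPKM over 12 libraries, S100a11 was the highest at 131 and ranked 307 among all genes. S100a10 followed at 68.3, S100a6 at 37.8 and S100a13 at 29.1. S100a9 stood at 10.7, S100a8 at 5.25 and S100a4 at 1.63. Neighbours in this order overlapped in their ranges over the 12 libraries, for example 14.6 to 73.2 for S100a6 and 19.2 to 47.9 for S100a13. All 7 remained far below S100a1, the cardiomyocyte member of the family, which was at 480.4 and ranked 77. S100a9 varied most, with its highest library 31.0 times its lowest, and S100a13 least, at 2.49 times.

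**Figure D1:**
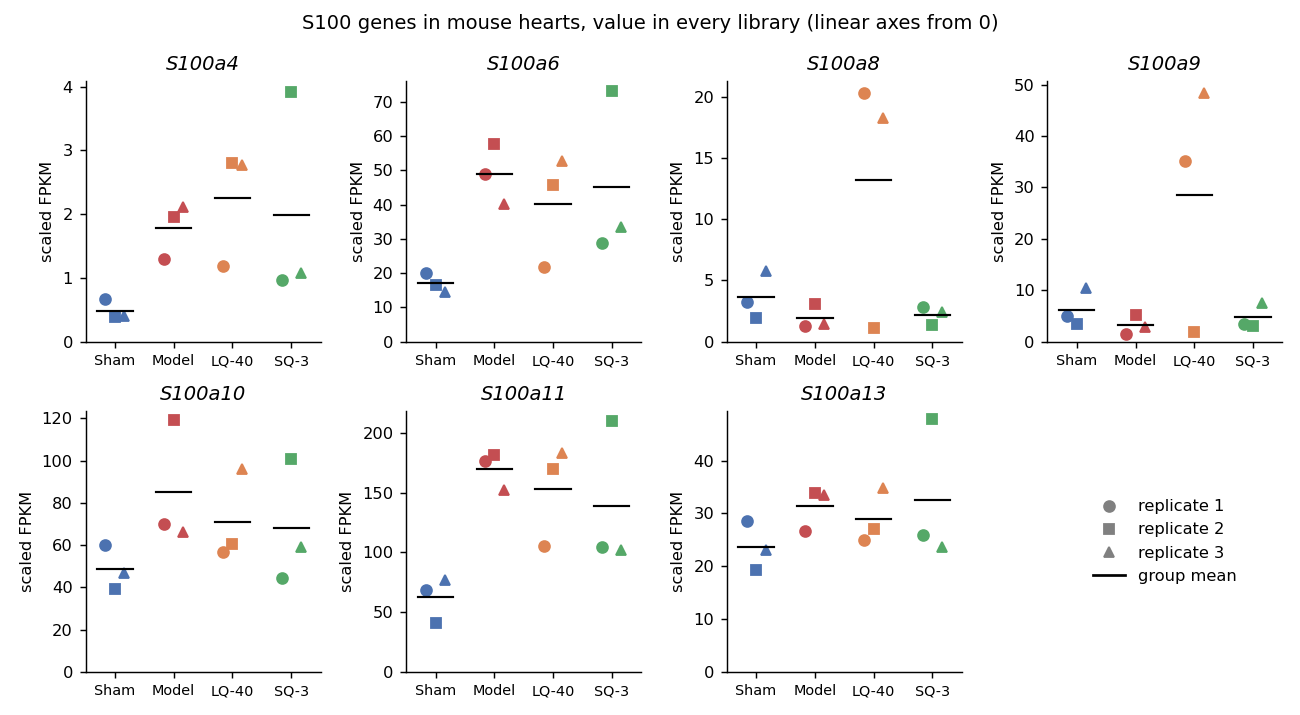
Scaled FPKM (linear axes from 0) of the 7 S100 genes in each of the 12 mouse heart libraries, with points for libraries, marker shapes for replicate numbers and black lines for group means. S100a6 and S100a11 are higher in every Model library than in any Sham library, and S100a8 and S100a9 are high only in LQ-40 replicates 1 and 3.

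The comparison of Model with Sham asked how the family differed in the fibrotic heart. S100a11, an annexin A1 partner, and S100a6, a partner of annexins and of Cacybp, rose, by 2.78-fold and 2.75-fold. Thus 2 of 7 members passed the test, in a comparison where 38.9% of the 13000 genes tested passed it and 20.9% rose. S100a4, S100a6, S100a10 and S100a11 lay higher in every Model library than in any Sham library, as did 29.8% of all genes tested. The median change of the 7 was 0.76 on the log2 scale, beside 0.03 for all genes tested. Because the 7 were chosen with earlier results known and leave out S100a1, which fell, this contrast is no test of the family.

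S100a11 stood at 68.6, 41.3 and 77.2 scaled FPKM in Sham replicates 1 to 3 and at 177, 181 and 152 in the Model replicates. Every Model library was above every Sham library. The means were 62.3 ± 18.7 and 170.0 ± 15.7 (SD, n = 3 each). On the scale of log2(scaled FPKM + 1), used for all mouse tests here and understating the change of low genes, the difference was 1.48 (SE 0.32, 95% interval 0.77 to 2.19), with an adjusted p of 0.0062 from limma.

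S100a6 stood at 19.998, 16.6 and 14.6 scaled FPKM in Sham and at 48.9, 57.7 and 40.1 in Model. Again the groups did not overlap, and the highest Sham value was below the lowest Model value. The means were 17.1 ± 2.74 and 48.9 ± 8.82 (SD, n = 3 each), a log2 change of 1.46 (SE 0.37, 95% interval 0.65 to 2.27) with an adjusted p of 0.0111.

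The stretches of DNA before these 2 genes are shown because they are the members that rose in the Model hearts. They come from RefSeq, build GRCm38.p6, read along the gene's strand from 250 bases before the RefSeq start to the last base before the first GENCODE exon. S100a11 is given for chr3:93520246-93520487 on the plus strand and S100a6 for chr3:90612644-90612881 on the plus strand. Capitals mark AP-1 motifs (TGANTCA) and GC boxes (GGGCGG).
S100a11: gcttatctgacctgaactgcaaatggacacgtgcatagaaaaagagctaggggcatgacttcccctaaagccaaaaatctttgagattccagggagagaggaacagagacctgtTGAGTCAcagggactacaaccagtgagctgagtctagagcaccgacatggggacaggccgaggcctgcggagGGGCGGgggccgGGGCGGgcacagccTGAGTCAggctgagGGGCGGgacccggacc
S100a6: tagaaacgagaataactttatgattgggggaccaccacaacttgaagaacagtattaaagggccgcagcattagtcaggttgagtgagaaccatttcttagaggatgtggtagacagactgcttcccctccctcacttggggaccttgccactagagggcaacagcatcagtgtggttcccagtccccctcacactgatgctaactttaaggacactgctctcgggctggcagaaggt
The S100a11 stretch holds TGANTCA at -136 and -38 from the RefSeq start, and GGGCGG at -64, -52 and -24. The S100a6 stretch holds none of the 4 motifs searched on both strands. These were TGANTCA for AP-1, the GC box GGGCGG, the C/EBP motif TTNNGCAA and the TATA box TATAAA. Among all 32851 windows of 300 bases in the RefSeq table, 7.81% hold TGANTCA, 0.46% hold it at least 2 times and 35.7% hold GGGCGG. These matches describe letters and not binding.

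S100a4, also called fibroblast-specific protein and found in leukocytes as well, was low in the mouse heart. Its values were 0.667, 0.381 and 0.403 scaled FPKM in Sham, from 3 to 5 reads, and 1.29, 1.95 and 2.11 in Model, from 13 to 21 reads. The groups did not overlap, but the log2 change of 0.90 (SE 0.33) had an adjusted p of 0.0508. It passed the threshold with a pseudocount of 0.1 (adjusted p = 0.0203), with only the 2 groups in the fit (0.00497) and with the replicate number as a block (0.0431). The range over 13 alternatives was 0.00497 to 0.131.

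The S100a4 counts are uncertain for another reason. Of its 584 exon bases, 302 (51.7%) are shared with Gm42674, a gene model on the same strand of chromosome 3 from 90601904 to 90605885 (mm10). Gm42674 had 0 reads in all 12 libraries, and S100a4 had 180 reads in all. How reads from shared exons were counted is not stated in the labels or tables. In the rat table the same gene was among the most abundant, as described below.

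S100a10 forms a complex with annexin A2 that binds plasminogen and its activator at the cell surface. It measured 60.2, 39.3 and 46.6 scaled FPKM in Sham and 69.9, 119 and 66.1 in Model. All Model libraries were above the Sham libraries, with Model replicate 2 far above the others. The means were 48.7 ± 10.6 and 85.1 ± 29.7 (SD, n = 3 each), and the log2 change of 0.76 (SE 0.33) had an adjusted p of 0.0890. It passed only with quantile normalization (0.0376), among alternatives from 0.0376 to 0.283.

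S100a13 takes part in the release of FGF1 and interleukin 1 alpha from stressed cells. It stood at 28.5, 19.2 and 23.0 scaled FPKM in Sham and at 26.7, 33.9 and 33.4 in Model. The groups overlapped in Sham replicate 1 and Model replicate 1, and the log2 change of 0.41 (95% interval -0.14 to 0.95) had an adjusted p of 0.218.

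The calprotectin genes were low in both groups. S100a8 measured 3.25, 1.93 and 5.76 scaled FPKM in Sham and 1.26, 3.09 and 1.43 in Model, and S100a9 4.92, 3.41 and 10.4 in Sham and 1.56, 5.26 and 2.81 in Model. The groups overlapped for both genes, and Sham replicate 3 was the highest of these 6 libraries for each. The log2 changes were -0.64 (95% interval -2.24 to 0.97, adjusted p = 0.512) for S100a8 and -0.76 (-2.70 to 1.17, adjusted p = 0.514) for S100a9, so that falls of well over 2-fold lay within both intervals.

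**Figure D2:**
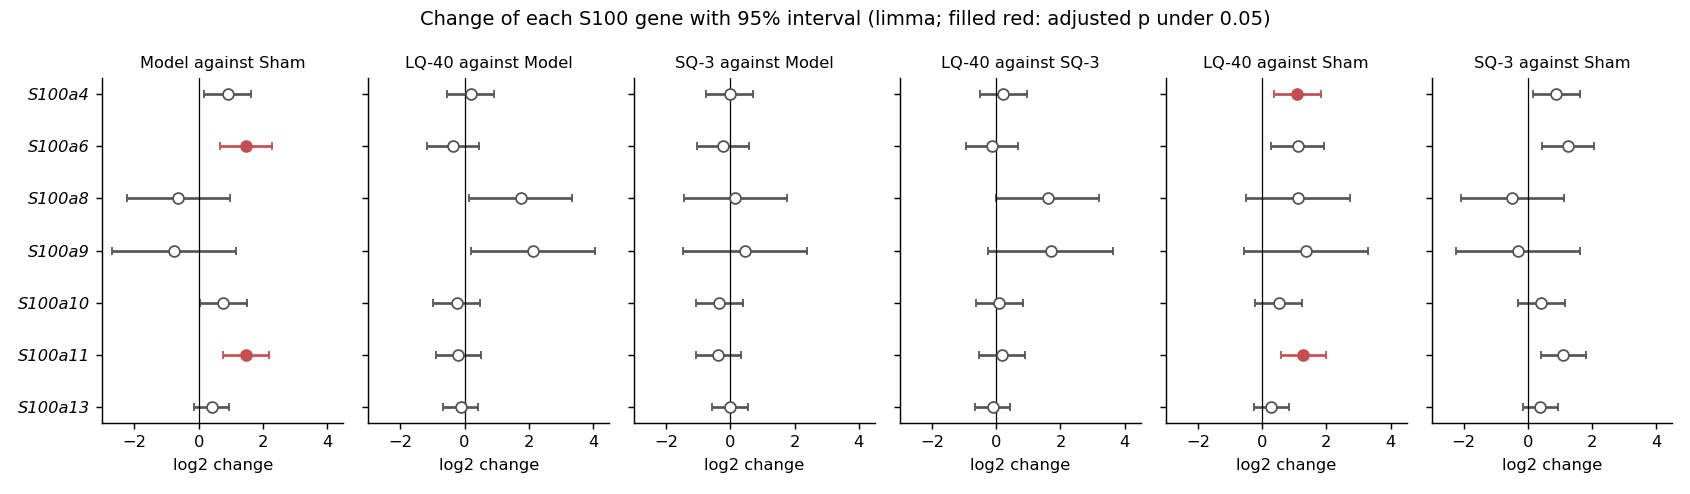
Log2 change of each S100 gene in the 6 mouse comparisons (points) with 95% intervals (bars), from limma on log2(scaled FPKM + 1). Filled red points have an adjusted p under 0.05: S100a6 and S100a11 in Model against Sham, and S100a4 and S100a11 in LQ-40 against Sham.

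Markers of other cells differed between the same hearts, in a comparison where 38.9% of all genes tested passed and 20.9% rose. Of 10 fibroblast markers 9 rose, and their sum was 1154 to 1265 scaled FPKM in Sham and 4118 to 4614 in Model. Of 13 macrophage markers 9 rose and 1 fell, with sums of 402 to 608 and 827 to 1215. Of 8 cardiomyocyte markers 7 fell, with sums of 14394 to 16349 and 7461 to 8868. The 8 mesothelial and epicardial markers summed to 3.16 to 18.1 in Sham and 21.5 to 103 in Model, and 5 rose. Of the markers tested for monocytes 1 of 4 rose, and 0 of 4 for neutrophils, 0 of 6 for endothelium, 0 of 3 for Schwann cells, 0 of 2 for lymphocytes and 0 of 2 for adipocytes passed with limma. In the fibroblast, macrophage, cardiomyocyte and mesothelial lists no marker was at 0 in all libraries of a group. In whole hearts, fewer or more cells of a type and a change of RNA per cell cannot be told apart, and the part of these cell types in the rise of S100a6 and S100a11 was not tested.

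The other S100 genes gave 1 rise and 1 fall, where 38.9% of all genes tested passed. Of 12 listed, 10 were in the mouse table and 3 passed the filter. S100a1 fell from 731, 574 and 535 scaled FPKM in Sham to 368, 457 and 396 in Model, a log2 change of -0.58 with an adjusted p of 0.0405. S100b, known from glia, rose from 0.577, 0.801 and 0.792 to 2.55, 1.31 and 2.37, a log2 change of 0.81 (adjusted p = 0.0343), from 11 to 65 reads. S100a16 differed by 0.35 (adjusted p = 0.0540), with no overlap between 28.5 to 35.98 in Sham and 37.96 to 44.9 in Model.

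Among 9 listed receptors of S100 proteins, 7 were tested, of which 2 rose and 2 fell, where 38.9% of all genes tested passed. Tlr4, the innate receptor bound by S100A8 and S100A9, rose: its Sham libraries lay between 4.05 and 6.08 scaled FPKM and its Model libraries between 7.54 and 8.28, a log2 change of 0.59 (adjusted p = 0.0107). Mcam, an adhesion molecule of vessel walls, rose by 0.53 on the log2 scale. Cd36, the fatty acid transporter, fell by 1.05 and Bsg, encoding basigin, fell by 0.56 on the log2 scale. Ager was near 0, at most 0.109 scaled FPKM in Sham and at most 0.326 in Model.

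Of 18 listed binding partners, 15 were tested, of which 6 rose and 1, Plgrkt, fell. In this comparison 38.9% of all genes tested passed and 20.9% rose. Anxa2, the partner of S100A10, stood at 25.1, 24.9 and 25.8 scaled FPKM in Sham and at 83.2, 96.5 and 78.6 in Model, a log2 change of 1.72 (adjusted p = 0.0019). Relative to S100a10, Anxa2 was 0.417 to 0.635 times as high per length in Sham and 0.808 to 1.19 times as high in Model. Plat, the tissue plasminogen activator held by that complex, rose by 1.53 on the log2 scale. Anxa1, the partner of S100A11, rose by 1.70 and Myh9, the non-muscle myosin bound by S100A4, by 1.03. The receptor and partner lists also hold genes that fibroblasts and macrophages express, and the change of cell types beside them was not tested.

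The comparisons of the compound groups with Model asked whether the treated hearts differed from the untreated fibrotic ones. No member passed the test for LQ-40 (0 of 7, where 0.669% of all genes tested passed) or for SQ-3 (0 of 7, where 0.346% passed). At an unadjusted p under 0.05 there were 2 members for LQ-40, S100a8 and S100a9, beside 12.1% of all genes tested, and 0 for SQ-3, beside 14.2%. With limma-voom on recovered reads the count was 0 for each compound. Both comparisons share the Model libraries.

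S100a11 stood at 105, 169.9 and 183 scaled FPKM in LQ-40 and at 104, 209.8 and 102 in SQ-3, against 152 to 181 in Model. Each treated group reached from below the lowest Model value to above the highest. The log2 change was -0.19 (95% interval -0.90 to 0.52) for LQ-40 and -0.37 (-1.08 to 0.34) for SQ-3, so a fall of 2-fold lay within the interval for SQ-3 only.

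S100a6 stood at 21.8, 45.7 and 52.8 scaled FPKM in LQ-40 and at 28.9, 73.2 and 33.4 in SQ-3, against 40.1 to 57.7 in Model. Each treated group had libraries below the Model range, LQ-40 replicate 1 and SQ-3 replicates 1 and 3. The log2 changes were -0.36 (95% interval -1.17 to 0.45) and -0.22 (-1.03 to 0.59).

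S100a10 measured 56.6, 60.5 and 96.1 scaled FPKM in LQ-40 and 44.4, 101 and 59.2 in SQ-3. These ranges overlapped with 66.1 to 119 in Model, and the log2 changes were -0.25 (95% interval -0.97 to 0.48) and -0.35 (-1.08 to 0.38). S100a13 measured 24.9, 27.0 and 34.8 in LQ-40 and 25.9, 47.9 and 23.6 in SQ-3, with log2 changes of -0.12 (-0.67 to 0.43) and -0.01 (-0.56 to 0.54). S100a4 was at 1.19, 2.80 and 2.77 in LQ-40 and at 0.966, 3.91 and 1.08 in SQ-3, with log2 changes of 0.19 (-0.54 to 0.92) and -0.02 (-0.75 to 0.71). None of these 3 genes separated a treated group from Model.

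These 5 genes, S100a4, S100a6, S100a10, S100a11 and S100a13, were high or low together within the treated groups. SQ-3 replicate 2 was the highest of its group for 5 of 5 and the highest of all 12 libraries for 4 of 5, and LQ-40 replicate 1 was the lowest of its group for 5 of 5. The share of all genes with these orders was not counted, so these counts cannot be read as particular to the S100 genes. Their sum was 436 scaled FPKM in SQ-3 replicate 2, against 204 and 219.7 in replicates 1 and 3. It was 209.6 in LQ-40 replicate 1, against 306 and 369.6 in replicates 2 and 3.

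Other measures differed between the same libraries. The fibroblast markers summed to 1826 scaled FPKM in LQ-40 replicate 1, against 3475 and 4807 in the other LQ-40 libraries, and to 3566 in SQ-3 replicate 2, against 2796 and 2814. Of the 5 genes, S100a4, S100a11 and S100a13 are short, with 584, 511 and 715 bases, while S100a6 and S100a10 have 1367 and 1212. A set of 301 genes of at most 1000 bases, not necessarily all such genes tested, was set beside them. Its median level, relative to each gene's mean on the log2 scale, was 0.15 in SQ-3 replicate 2, against -0.16 and 0.04 in replicates 1 and 3. In LQ-40 it went the other way, at 0.12 in replicate 1, where the S100 genes were lowest, against -0.15 and -0.09 in replicates 2 and 3. The part of either in the S100 values was not tested.

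**Figure D3:**
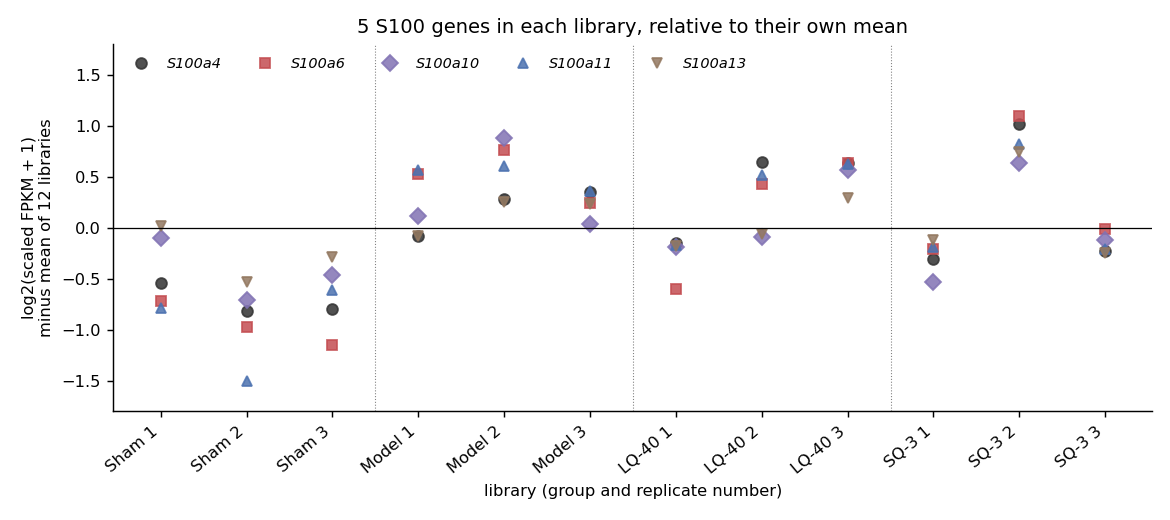
Log2(scaled FPKM + 1) of S100a4, S100a6, S100a10, S100a11 and S100a13 in each of the 12 mouse libraries (points), minus each gene's mean over the 12. All 5 lie above their mean in SQ-3 replicate 2 and below it in LQ-40 replicate 1.

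S100a8 and S100a9 had another pattern, with 2 high libraries in a single group. S100a8 measured 20.4, 1.09 and 18.3 scaled FPKM in LQ-40 replicates 1 to 3, from 183, 12 and 204 reads, against 1.26 to 3.09 in Model. S100a9 measured 35.2, 1.93 and 48.3 in LQ-40, from 238, 16 and 406 reads, against 1.56 to 5.26 in Model. Replicates 1 and 3 were above all other 10 libraries for both genes, and replicate 2 was the lowest of the 12 for S100a8 and the second lowest for S100a9.

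The LQ-40 means were 13.2 ± 10.6 for S100a8 and 28.5 ± 23.9 for S100a9 (SD, n = 3 each). The log2 change against Model was 1.75 for S100a8 (SE 0.73, 95% interval 0.15 to 3.36) with an adjusted p of 0.360. For S100a9 it was 2.14 (SE 0.88, 95% interval 0.21 to 4.08) with an adjusted p of 0.353. Without LQ-40 replicate 2, the library with lung transcripts, both passed the test: 2.85 (adjusted p = 0.0131) for S100a8 and 3.43 (0.0189) for S100a9. The count of members called became 2, where 0.346% of all genes passed in that fit. Replicate 2 was the low LQ-40 library for both genes, so leaving it out keeps the 2 libraries already seen as highest. These calls are therefore no separate support for the pattern. In SQ-3 S100a8 stood at 2.80, 1.40 and 2.38 and S100a9 at 3.48, 3.06 and 7.55. The SQ-3 values were not distinguishable from Model, with log2 changes of 0.15 (-1.45 to 1.76) and 0.45 (-1.48 to 2.38).

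The sequences before S100a8 and S100a9 are shown because these genes were each other's nearest profile. They were taken as above, from chr3:90668821-90668977 on the plus strand for S100a8 and chr3:90695722-90695971 on the minus strand for S100a9. Capitals mark TTNNGCAA, a C/EBP motif, on either strand, and GGGCGG.
S100a8: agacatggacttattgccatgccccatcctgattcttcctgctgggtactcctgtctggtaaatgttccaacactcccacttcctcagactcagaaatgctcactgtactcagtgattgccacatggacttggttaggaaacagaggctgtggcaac
S100a9: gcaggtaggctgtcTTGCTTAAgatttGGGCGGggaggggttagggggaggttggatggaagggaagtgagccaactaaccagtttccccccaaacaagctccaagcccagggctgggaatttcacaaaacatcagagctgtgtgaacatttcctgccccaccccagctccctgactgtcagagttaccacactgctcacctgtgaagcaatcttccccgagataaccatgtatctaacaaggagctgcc
The S100a9 stretch holds TTNNGCAA on the reverse strand at -236 and GGGCGG at -223. The S100a8 stretch holds neither, and TTNNGCAA is in 10.8% of all windows. TATAAA is in 3 of the 6 windows matched, those of S100a4, S100a8 and S100a9, and in 13.6% of all windows. For S100a8 and S100a9 it lies beyond the stretch shown. The RefSeq table had no entry for S100a10.

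Part of the neutrophil markers were high in the same 2 libraries. The 14 markers, which include neither S100a8 nor S100a9, summed to 26.7, 6.76 and 36.3 scaled FPKM in LQ-40 replicates 1 to 3, against 4.27 to 7.61 in Sham, 6.08 to 10.9 in Model and 4.01 to 10.1 in SQ-3. Of the 14, 10 were higher in LQ-40 replicate 1 than in all 10 libraries outside LQ-40 replicates 1 and 3, 11 were so in replicate 3 and 7 in both. The share of all genes with this pattern was not counted, so these counts cannot be read as particular to neutrophil markers. Only 4 of the 14 passed the filter for testing. Of the 4 markers tested 0 passed for LQ-40 against Model with limma, and 0 had an unadjusted p under 0.05. Ngp, a granule protein of immature neutrophils, was at 8.02, 0.00 and 1.22 in LQ-40 and Cxcr2, their chemokine receptor, at 0.633, 0.165 and 3.32. Csf3r, the receptor of granulocyte colony-stimulating factor, was at 2.27, 2.58 and 8.09 and Lcn2 at 2.85, 2.83 and 9.64, so that both were high in replicate 3 alone. Ly6g, the defining surface marker, was at 0.820 in LQ-40 replicate 1 but at 0 in replicate 2 and 0.0660, from 1 read, in replicate 3. It was at 0 in all Sham libraries and reached 0.142 in Model and 0.1996 in SQ-3. The part of neutrophils in the S100a8 and S100a9 values was not tested.

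**Figure D4:**
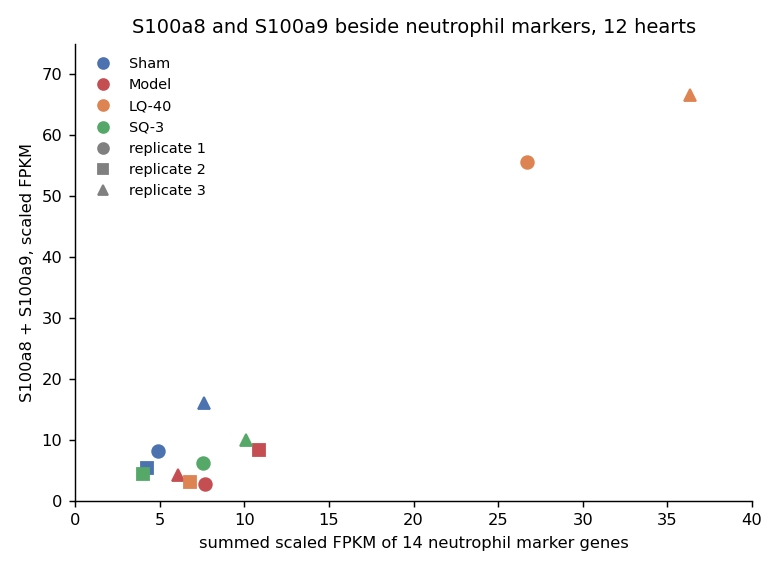
Sum of S100a8 and S100a9 (scaled FPKM, vertical axis) against the summed scaled FPKM of 14 neutrophil marker genes (horizontal axis) in the 12 mouse hearts, one point for each library. LQ-40 replicates 1 and 3 lie apart at 55.6 and 66.6, and the other 10 libraries lie at or below 16.1.

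The ratio of S100a9 to S100a8 per length varied less than the levels did. It ran from 1.24 to 3.17 over the 12 mouse libraries, and it was 1.73, 1.77 and 2.65 in LQ-40, whose replicate 2 was low for both genes.

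The receptors of the secreted S100 proteins had 0 calls for either compound, where 0.669% of all genes tested passed for LQ-40 and 0.346% for SQ-3. Tlr4 stood at 4.78, 6.04 and 7.04 scaled FPKM in LQ-40 and at 5.64, 6.25 and 4.84 in SQ-3, in all 6 libraries below the lowest Model value of 7.54, with adjusted p of 0.322 and 0.243 from limma. The share of all genes lying below Model in this way was not counted, here or for Plat below. Ager reached 11.3 in LQ-40 replicate 2, the library with lung transcripts, and at most 0.326 in the other 11; RAGE is abundant in lung alveolar cells. Of the 15 partners tested 1 fell for LQ-40, Plat, and 0 for SQ-3. Plat stood at 11.8 to 13.4 in Model and at 5.10, 5.69 and 8.97 in LQ-40 (log2 change -0.90, adjusted p = 0.0443 with limma). In SQ-3 it stood at 8.10, 9.93 and 7.23, also below every Model library. For LQ-40 against SQ-3, 0 of the 15 partners passed. Anxa2 measured 35.8, 64.3 and 86.3 in LQ-40 and 46.4, 80.5 and 49.5 in SQ-3, with adjusted p of 0.499 and 0.378 against Model.

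LQ-40 and SQ-3, given as similar in structure, were compared for 7 members in 1 pair of groups. Their doses and times are not given. No member passed (0 of 7, and 0% of the 13000 genes tested), and 0 of the 7 had an unadjusted p under 0.05, beside 3.03% of all genes. The largest difference was in S100a9, 1.69 on the log2 scale higher in LQ-40 (95% interval -0.24 to 3.62), followed by S100a8 at 1.60 (-0.01 to 3.21). For the other members the intervals ran from -0.51 to 0.94 for S100a4, -0.95 to 0.67 for S100a6, -0.63 to 0.83 for S100a10, -0.53 to 0.89 for S100a11 and -0.66 to 0.44 for S100a13. On the scale of log2(scaled FPKM + 1), the intervals of these 5 genes held no difference of 2-fold or more, and those of S100a8 and S100a9 did. S100a4 was at only 0.966 to 3.91 scaled FPKM in SQ-3, where that scale understates changes. A 2-fold difference in FPKM is therefore not excluded for S100a4.

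Against Sham, S100a4, S100a6 and S100a11 were higher in both treated groups with no overlap, but few of these differences passed the test. In LQ-40 2 of 7 members rose, S100a4 and S100a11, where 15.8% of all genes tested passed and 9.83% rose. S100a11 rose by 1.29 on the log2 scale (SE 0.32, adjusted p = 0.0281) and S100a4 by 1.09 (SE 0.33, 0.0472), both with every LQ-40 library above every Sham library, as for 19.2% of all genes. S100a6 was 1.10 higher with no overlap but an adjusted p of 0.0609. These calls were not stable: over the alternatives the adjusted p ran from 0.00671 to 0.106 for S100a11 and from 0.0126 to 0.167 for S100a4. Without LQ-40 replicate 2, where 3.14% of all genes passed, neither did: S100a11 was still 1.19 higher (adjusted p = 0.0973) and S100a4 0.96 higher (0.143). In that fit S100a8 (2.21, adjusted p = 0.0178) and S100a9 (2.66, 0.0256) passed, again after their low LQ-40 library was left out. Without LQ-40 replicate 1, where 33.6% of all genes passed, S100a6 did so too (1.48, 0.00822).

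In SQ-3 0 of 7 passed against Sham, where 6.68% of all genes tested passed, although 3 had an unadjusted p under 0.05, as did 28% of all genes. S100a6 was 1.24 higher (95% interval 0.43 to 2.05, adjusted p = 0.0698), S100a11 1.11 higher (0.40 to 1.82, 0.0661) and S100a4 0.88 higher (0.15 to 1.61, 0.123). All 3 had every SQ-3 library above every Sham library, as did 20.2% of all genes. These comparisons share the Sham libraries with that of Model against Sham, in which S100a6 and S100a11 differed by 1.46 and 1.48.

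The genes whose profile over the 12 libraries lay nearest to each member were found by the root-mean-square difference of log2(scaled FPKM + 1) after centring each gene on its mean. S100a8 and S100a9 were each other's nearest among all genes tested, with a difference of 0.35 where their own spreads were 1.09 and 1.30. The next were H2-K1 and Gm6304 for both. S100a11 lay nearest to Emp3 (0.18), Lgals1, encoding galectin-1 (0.22), and Cd302 (0.22). S100a6 lay nearest to Pdlim3 (0.17), Id2 (0.19) and Crip1 (0.19). S100a6 and S100a11 differed from each other by 0.28. S100a10 lay nearest to Sec61b, Rps12 and Myl6, S100a13 to Gm9800, Tceal8 and Mif, and S100a4 to C1qtnf7, Fam167b and Ogn. The 12 libraries share their groups, so these values describe likeness only.

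All 7 members lie on mouse chromosome 3 (mm10). S100a13 (90514435 to 90524581), S100a4 (90603771 to 90606045), S100a6 (90612882 to 90624181), S100a8 (90668978 to 90670035) and S100a9 (90692632 to 90695721, minus strand) belong to a run of 12 S100 genes spanning 185 kb. S100a11 (93520488 to 93526287) and S100a10 (93555080 to 93564643) lie 2.82 Mb further on. The changes of neighbours in the run can be set side by side. S100a13 starts 42 bases from S100a1 on the opposite strand, and S100a1 fell in Model while S100a13 had a change of 0.41. The ratio of S100a1 to S100a13 per length was 23.2 to 29.8 in Sham and 11.8 to 13.8 in Model. S100a6 and S100a8, in the same run, had changes of 1.46 and -0.64. The changes of S100a13 and S100a8 did not pass the test, so changes in opposite directions are not shown for either pair.

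In the rat cells the order of levels differed from the mouse hearts most for S100a4. S100a6 was also above S100a10 in 2D, and S100a9 above S100a13 in 3D. S100a11 was the highest at 1912 scaled FPKM in 2D and 1835 in 3D, ranking 13 among all genes in 2D. S100a6 stood at 761 and 693, S100a10 at 609.6 and 769, and S100a4 at 347 and 345. S100a4 thus ranked 171 in these fibroblast-rich libraries, whereas it was the lowest of the 7 in the mouse hearts. The uncertain counting of mouse S100a4 given above applies to this contrast, and its cause was not tested. S100a13 (6.71 and 7.44), S100a9 (5.59 and 11.04) and S100a8 (3.33 and 1.36) were low. S100a1 was at 5.18 and 4.81 and S100a16 at 30.7 and 33.9, and S100a3 at 0.944 and 1.28.

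The comparison of 3D with 2D set the hypoxic 3D co-culture beside the cells joined from 2D culture. There was 1 library of each, so no test was made. The 3D form, the co-culture and hypoxia differ together between them, so their parts cannot be told apart. None of the 7 members passed 2-fold (0 of 7, against 7.47% of the 13405 genes compared) on log2(scaled FPKM + 1), and the median change was -0.01 for the members and 0.00435 for all genes compared. S100a10 had 1.26 times the reads in 3D after adjusting for depth (95% interval 1.21 to 1.31), from 4731 and 5142 reads. The ratio was 0.911 (0.873 to 0.951) for S100a6, 0.959 (0.928 to 0.992) for S100a11 and 0.995 (0.944 to 1.05) for S100a4. These exact binomial intervals cover counting error only, and the spread between cultures is unknown.

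The calprotectin genes pointed in opposite directions in the rat. S100a9 had 40 reads in 2D and 68 in 3D, a ratio of 1.97 (95% interval 1.32 to 2.99). S100a8 had 17 and 6 reads, a ratio of 0.410 (0.132 to 1.09), which exceeds 2-fold in recovered reads and with a pseudocount of 0.1. S100a13, with 44 and 42 reads, had a ratio of 1.11 (0.709 to 1.73). The neutrophil list summed to 7.58 scaled FPKM in 2D and 58.4 in 3D. Most of that was Lcn2, at 3.41 and 43.6, and Mmp9, at 1.08 and 10.5, both also made by other cells, while Ltf, Elane and Retnlg were at 0 in both libraries. Tlr4 stood at 13.6 and 9.11, Ager at 1.12 and 0.434, and Anxa2 at 823 and 902.

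**Figure D5:**
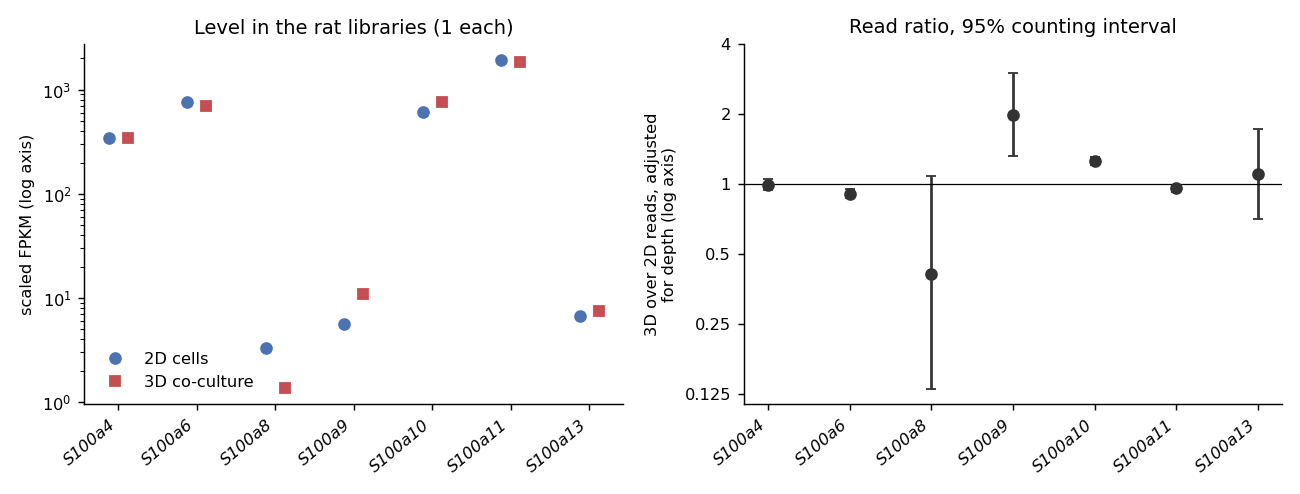
Left, scaled FPKM (log axis) of the 7 S100 genes in the single rat 2D and 3D libraries. Right, ratio of 3D to 2D reads adjusted for depth (log axis) with exact 95% binomial intervals, which cover counting error only; the interval of S100a9 lies above 1, from 1.32 to 2.99, and that of S100a8 crosses 1.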

How the data were processed

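FPKM of 12 mouse heart libraries and 2 rat cell libraries were used as the authors deposited them. RNA was extracted with trizol and selected with poly-T beads, per the labels' protocols, which describe both an unstranded and a dUTP library. Per the submitters' processing notes, the builds were mm10 and Rnor_6.0, and featureCounts 1.5.0-p3, HISAT2 2.0.5 and fastp were used. Neither annotation release nor strand setting is given in the sources used here. The gene lengths in the deposited tables allowed whole reads to be recovered from FPKM: 100.0% of values lay within 0.02 of a whole read, and the sums are the depths given.

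The members and gene lists were chosen with earlier results of these data known. Each library's FPKM were scaled by a median-of-ratios factor (10422 mouse and 12109 rat genes at 1 FPKM or more in every library). The 13000 mouse genes at 1 FPKM or more in 3 or more libraries were tested with limma 3.58.1 in R 4.3.3 on log2(scaled FPKM + 1), 2-sided, in 1 fit of 12 libraries with a variance trend and Benjamini-Hochberg adjustment over all genes tested, and a threshold of 0.05. The script was tested on simulated data. Alternatives were deposited FPKM, quantile normalization, a pseudocount of 0.1, other filters, fewer samples, limma-voom on recovered reads, a replicate block and leaving out each library. Rat genes at 1 FPKM or more in either library (13405) were compared without a test, with read ratios and exact 95% binomial intervals. The named genes were the 7 members in every comparison, other S100 genes at 1 FPKM or more, up to 4 called receptors and partners by smallest p with Ager, Tlr4 and Anxa2, and the 3 nearest profiles of each member. A few marker genes, among them Lcn2 and Mmp9, were named after their values were seen. Replicates differed beyond counting noise (chi-square per degree of freedom 20.1 to 156). Same-numbered libraries did not pair: 3 of 18 correlations passed 0.1.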

Additional observations from a re-analysis of the deposited data

How the results depend on the processing

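In the mouse, 537 values kept their direction and side of the threshold under the alternatives, 9 gained and 15 lost significance, and 21 changed sign without being called. In the rat 27 of the log2 ratios kept their direction, though S100a8 crossed 2-fold as given below. S100a6 and S100a11 passed in Model against Sham under all 14 alternatives, with adjusted p from 0.00101 to 0.0373 and from 0.00304 to 0.0248. In LQ-40 against Sham the count of members called, 2 in the main analysis, was 1 with quantile normalization, 1 with a mean of at least 5 FPKM, which leaves out S100a4, 1 with limma-voom, 0 with no filter and 0 with only the groups compared, and 0 to 3 when a library was left out. Fewer samples or more genes tested are part of these alternatives, and the cause was otherwise not tested. In LQ-40 against Model the count was 0 to 2 when a library was left out, with 2 without LQ-40 replicate 2, the low LQ-40 library for S100a8 and S100a9. In the rat 1 member, S100a8, passed 2-fold with a pseudocount of 0.1 and 1 with recovered reads.

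Sign changes were found in values that did not pass the test. Some of these were not near 0 in the main analysis, such as S100a6 and S100a10 in LQ-40 against Model. Apart from S100a13 at 0.010 in SQ-3 against Model with limma-voom, the sign changes came from leaving out a library. The ranges over the libraries left out were, in LQ-40 against Model, -0.60 to 0.021 for S100a6, -0.48 to 0.022 for S100a10 and -0.34 to 0.057 for S100a11. In SQ-3 against Model they were -0.45 to 0.21 for S100a4, -0.62 to 0.033 for S100a6, -0.0082 to 0.42 for S100a8 and -0.32 to 0.17 for S100a13. In LQ-40 against SQ-3 they were -0.019 to 0.64 for S100a4, -0.39 to 0.26 for S100a6, -0.16 to 0.42 for S100a10 and -0.29 to 0.20 for S100a13. In SQ-3 against Sham S100a9 ran from -0.65 to 0.073. The cause was not tested.

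The replicate numbers are shared by the groups but nothing ties them to an animal or day, and 1 of 12 libraries correlated best with its own number. With the replicate number as a block, the count in Model against Sham was 3, with S100a4 added, and no other count of members moved by over 1.5 times. Depth limits S100a4 (3 to 40 reads a library), S100a8 and S100a9 in most libraries, and 3 libraries a group limit every interval.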

Other observations

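S100a7a was below the level for testing and was picked out after its values were seen. It stood at 0.886, 0.729 and 0.723 scaled FPKM in the Model libraries, from 15 to 21 reads each, and at 0.0569 to 0.332 in the other 9 libraries, from 1 to 8 reads each. S100g had 10 reads and S100a14 9 reads in LQ-40 replicate 2, the library with lung epithelial transcripts, and at most 1 and 3 reads in any other mouse library.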
